A study of Mus musculus with 6 samples.

Results

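Immediate early genes and Atf3 were followed in alveolar macrophages (AMs) that express or lack CD44. The set held 10 genes taken by name, Fos, Fosb, Jun, Junb, Egr1, Atf3, Ier2, Ier3, Dusp1 and Zfp36, out of 24341 genes in the deposited table. All 10 had a mean of at least 0.5 FPKM (read fragments scaled to transcript length and to library size) and so entered the comparison, which covered 10800 genes. The comparison addressed how loss of CD44, the hyaluronan receptor of AMs, alters their transcriptome at steady state.

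AMs were collected by bronchoalveolar lavage (BAL) with PBS and EDTA from untreated female C57BL/6 mice aged 6 to 10 weeks, followed by red cell lysis. The control mice were CD44+/+ and the others CD44-/-, in which CD44 is missing from every cell type and not from AMs alone. There were 3 samples of each genotype, each an RNA pool from 2 or 4 mice, so the spread between samples is that between pools. RNA was taken from all BAL cells after lysis, with no sort, and in such bulk samples fewer cells of a type and less RNA per cell cannot be told apart.

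Immediate early genes are transcribed within minutes of a stimulus by factors that are already present in the cell, mainly downstream of MAP kinases, SRF with its ternary complex factors, CREB and NF-kB. Their messages are short-lived, and several of the proteins shut the response down again. Macrophages induce these genes on sensing microbial products, on adhesion and on handling, and cell isolation itself is known to induce them. Fos, Fosb, Jun and Junb encode subunits of the AP-1 transcription factor, Egr1 encodes a zinc finger transcription factor, and Atf3 encodes a stress-induced factor that represses inflammatory genes in macrophages. Ier2 and Ier3 are further early response genes, the latter linked to cell survival, while Dusp1 and Zfp36 encode feedback inhibitors, a phosphatase of p38 and JNK and a protein that binds AU-rich messages and promotes their decay.

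The bases upstream of the transcription start are shown for the 4 genes in which the genotypes did not overlap, Dusp1, Ier3, Fosb and Atf3, as the context in which their response elements stand. Each sequence is the 250 bases before the start in the RefSeq annotation of GRCm38.p6, printed 5′ to 3′ on the strand of the gene. They lie at chr17:26508473-26508722 (minus strand) for Dusp1, chr17:35821463-35821712 (plus strand) for Ier3, chr7:19310046-19310295 (minus strand) for Fosb and chr1:191183334-191183583 (minus strand) for Atf3. Capitals mark the cyclic AMP response element (CRE) in Dusp1, an NF-kB motif in Ier3, and an NF-kB motif followed by an EGR motif in Fosb. Atf3 has no capitals because it held none of the 6 motifs searched.
Dusp1: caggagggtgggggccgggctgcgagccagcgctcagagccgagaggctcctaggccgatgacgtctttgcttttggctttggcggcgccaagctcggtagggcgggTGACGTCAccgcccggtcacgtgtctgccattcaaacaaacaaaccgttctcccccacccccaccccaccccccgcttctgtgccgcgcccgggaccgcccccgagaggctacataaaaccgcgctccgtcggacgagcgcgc
Ier3: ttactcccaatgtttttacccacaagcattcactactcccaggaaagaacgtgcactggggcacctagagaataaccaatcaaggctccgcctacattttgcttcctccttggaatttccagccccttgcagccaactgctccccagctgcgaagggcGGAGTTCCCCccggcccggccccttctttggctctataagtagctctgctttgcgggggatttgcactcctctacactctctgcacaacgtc
Fosb: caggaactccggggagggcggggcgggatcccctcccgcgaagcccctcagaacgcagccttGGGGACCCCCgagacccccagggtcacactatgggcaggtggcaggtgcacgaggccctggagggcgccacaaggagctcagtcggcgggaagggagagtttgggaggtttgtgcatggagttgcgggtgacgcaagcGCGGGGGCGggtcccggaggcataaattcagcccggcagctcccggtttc
Atf3: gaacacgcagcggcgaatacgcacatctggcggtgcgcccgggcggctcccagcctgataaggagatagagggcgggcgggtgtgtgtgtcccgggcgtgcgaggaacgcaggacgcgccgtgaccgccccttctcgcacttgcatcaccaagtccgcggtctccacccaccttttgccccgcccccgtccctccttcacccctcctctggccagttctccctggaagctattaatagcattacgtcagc

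Both strands of the upstream bases of 8 of the 10 genes, those with a RefSeq promoter entry, were searched for 6 motifs. Shares are given for all 32851 promoters in the table and for those of tested genes (10580). The motifs were CRE (TGACGTCA), AP-1 (TGACTCA), EGR (GCGGGGGCG), the TATA box (TATAAA), and the CArG box bound by SRF and the NF-kB site, both searched by their usual degenerate forms. CRE stood in Dusp1 alone, from base -143 to -136 relative to the start, and is held by 1.55% of all promoters and 2.73% of those of tested genes. EGR was found in Fosb (-50 to -42) and Zfp36 (-105 to -97), against 2.57% and 4.56%. The CArG box was found in Zfp36 (-58 to -49), against 1.47% and 1.13%, and TATAAA in Fos (-33 to -28), against 12.4% and 6.17%. NF-kB motifs stood in Fosb (-188 to -179), Fos (-214 to -205, opposite strand) and Ier3 (-92 to -83, opposite strand), against 7.25% and 8.66%. The AP-1 letters were in 0 of the 8 windows and in 4.46% of all promoters and 3.12% of those of tested genes. No matches overlapped each other, and a match describes letters in a window and not a bound site. Variants of the printed letters and elements farther upstream than 250 bases were not counted. For Junb, the bases after the start were not found in the transcript used for its structure.

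As a check on the labels, Cd44 itself reached 540, 535 and 527 FPKM in CD44+/+ AMs but 54.7, 54.5 and 51.4 FPKM in CD44-/- AMs. All 15 AM markers were above 1 FPKM in every sample, and their summed level lay between 19648 and 24050 FPKM. Markers of other cells were lower in sum, from 660 to 1418 FPKM for airway secretory cells, 234 to 438 for monocytes and dendritic cells, 91.3 to 189 for neutrophils, 15.1 to 338 for erythroid cells (highest in CD44-/- replicate 2), and no more than 2.38 for lymphocytes and 0.198 for endothelial and stromal cells. Depth relative to CD44+/+ replicate 1 lay between 0.815 and 1.06, the lowest in CD44-/- replicate 2.

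None of the 10 genes passed the test. At an adjusted p under 0.05 (limma on log2(FPKM + 0.1), Benjamini-Hochberg over all genes tested), 0 of 10 were called, against 12 of 10800 genes or 0.111%. At an unadjusted p under 0.05 there were 5 of 10, against 7.69% of all genes. Of these, 4 had the higher values in CD44-/- AMs (Dusp1, Ier3, Jun and Fosb, against 4.75% of all genes) and 1 the lower (Atf3, against 2.94%). The genotypes did not overlap in 4 of 10 genes, against 11.6% of all genes: 3 were higher in CD44-/- AMs (Dusp1, Ier3 and Fosb, against 6.75%) and 1 was lower (Atf3, against 4.88%). In all, 7 genes had the higher mean and 3 the lower mean log2 value in CD44-/- AMs, and the median log2 fold change of the 10 was 0.19 against 0.01 over all genes. For a single gene, the smallest two-sided p that an exact permutation test of 3 against 3 samples can give is 0.1.

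**Figure D1:**
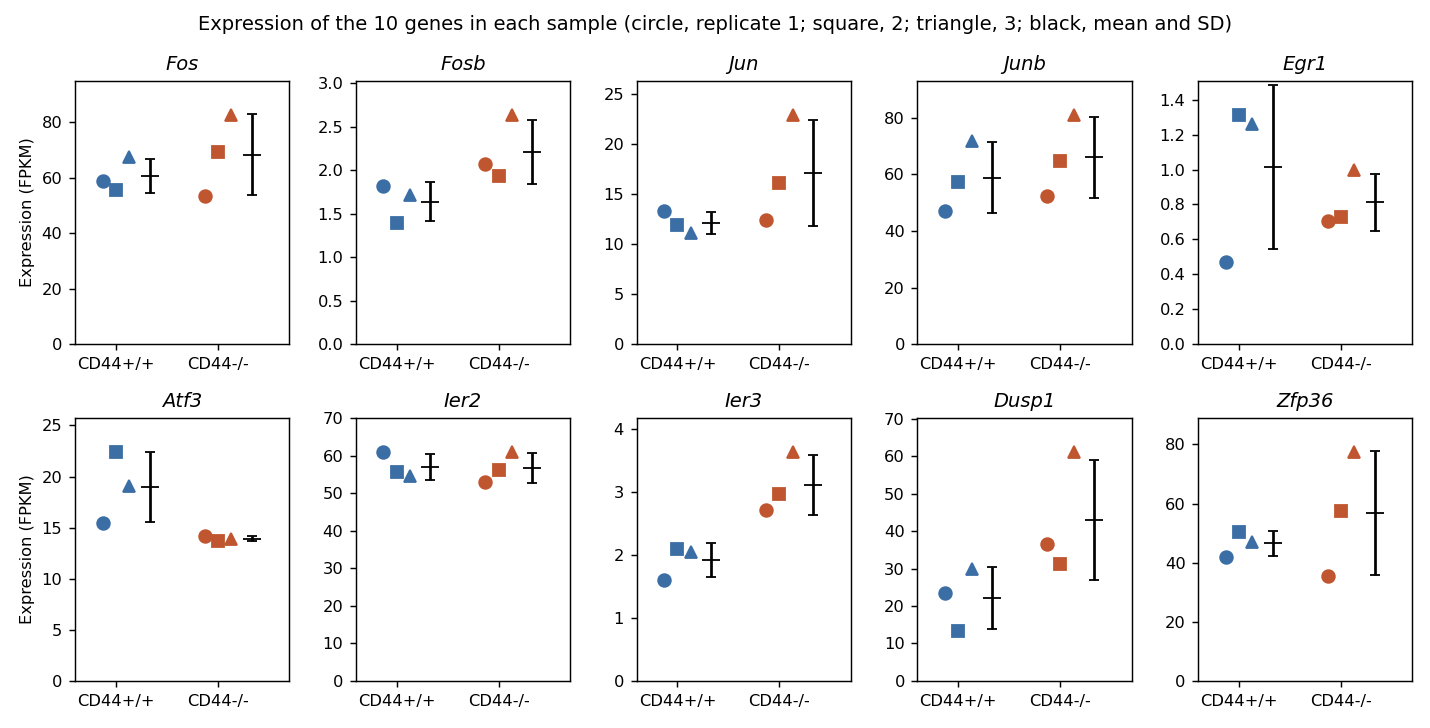
FPKM of each of the 10 genes (y axis, linear from 0) in the 3 CD44+/+ (blue) and 3 CD44-/- (orange) samples, with symbols for the replicate number and the mean with SD in black. Dusp1, Ier3 and Fosb show all CD44-/- samples above all CD44+/+ samples, Atf3 shows the opposite order, and CD44-/- replicate 3 (orange triangle) is the highest sample of 7 genes.

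Among the feedback inhibitors, Dusp1, the phosphatase that switches off p38 and JNK, had the largest log2 fold change of the 10 genes over all samples, though not without CD44+/+ replicate 2. It was listed at 23.4, 13.2 and 29.8 FPKM in CD44+/+ AMs and at 36.5, 31.2 and 61.1 FPKM in CD44-/- AMs. The lowest CD44-/- sample was thus just above the highest CD44+/+ sample, and within each genotype the highest sample was well apart from the lowest. Means were 22.1 ± 8.37 and 42.9 ± 16.0 FPKM (SD, n = 3 each), a log2 fold change of 0.97 with a standard error (SE) of 0.31 and a 95% interval from 0.25 to 1.69. The unadjusted p was 0.014 and the adjusted p 0.476, and the log2 fold change was 0.64 without CD44+/+ replicate 2, the lowest sample, when that of Ier3 was 0.74. Dusp1 (chr17:26505591-26508472 in mm10) lies on the same chromosome as Ier3.

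Zfp36 encodes tristetraprolin, the other feedback inhibitor, which removes AU-rich messages such as that of Tnf. Its values were 41.9, 50.5 and 47.1 FPKM in CD44+/+ AMs and 35.6, 57.6 and 77.4 FPKM in CD44-/- AMs. The CD44-/- samples held both the lowest and the highest value, and their SD of 20.9 FPKM stood beside 4.33 FPKM in CD44+/+ AMs. Zfp36 had a log2 fold change of 0.22 (SE 0.23, 95% interval from -0.31 to 0.76, adjusted p = 0.939). Without CD44-/- replicate 3 the sign turned, to -0.03.

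Ier3, an early response gene linked to cell survival and to dampening of NF-kB signalling, had the smallest p of the 10 genes over all samples without the pairing of replicate numbers. It was listed at 1.60, 2.10 and 2.04 FPKM in CD44+/+ AMs and at 2.71, 2.97 and 3.63 FPKM in CD44-/- AMs. The genotypes were separated, with the gap between them larger than the range within CD44+/+ AMs. Means were 1.91 ± 0.273 and 3.10 ± 0.474 FPKM (SD, n = 3 each), and the log2 fold change was 0.67 (SE 0.16, 95% interval from 0.31 to 1.03). The unadjusted p was 0.0023 and the adjusted p 0.272, the lowest among the 10.

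Ier2, a nuclear early response protein, behaved differently from Ier3 in level and in spread. Its values were 61.0, 55.8 and 54.5 FPKM in CD44+/+ AMs and 53.1, 56.3 and 60.9 FPKM in CD44-/- AMs. Both genotypes covered the same range, and the log2 fold change was -0.01 (SE 0.07), with an interval from -0.16 to 0.15 that bounds a difference in either direction more closely than for the other 9 genes.

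Of the AP-1 subunits, the 2 expressed at the higher level did not separate the genotypes. Fos, the dimer partner of the Jun proteins, was listed at 58.8, 55.5 and 67.6 FPKM in CD44+/+ AMs and at 53.4, 69.2 and 82.5 FPKM in CD44-/- AMs. Junb, the Jun protein with the weaker transactivation, was listed at 47.1, 57.3 and 71.9 FPKM and at 52.3, 64.7 and 80.8 FPKM. In both genes the lowest CD44-/- sample lay below at least 1 CD44+/+ sample, and the log2 fold changes were 0.16 (SE 0.14, adjusted p = 0.925) for Fos and 0.16 (SE 0.18, adjusted p = 0.944) for Junb.

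The other AP-1 subunits had the lower levels and the larger differences. Jun was listed at 13.3, 11.9 and 11.1 FPKM in CD44+/+ AMs and at 12.4, 16.1 and 22.9 FPKM in CD44-/- AMs. CD44-/- replicate 1 lay within the CD44+/+ range and the other CD44-/- samples above it, so the SD was 1.11 FPKM in CD44+/+ AMs and 5.33 FPKM in CD44-/- AMs. The log2 fold change of Jun was 0.46 (SE 0.19, unadjusted p = 0.042, adjusted p = 0.626). Jun (chr4:95049036-95052222 in mm10) is overlapped by the antisense gene Junos, and Zfp36 by Gm44710, and reads of such pairs cannot be told apart unless strand was used in counting, which is not given in the sources used here.

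Fosb, a Fos family member, was near 2 FPKM. It was listed at 1.82, 1.39 and 1.71 FPKM in CD44+/+ AMs and at 2.07, 1.93 and 2.63 FPKM in CD44-/- AMs. All CD44-/- samples were above all CD44+/+ samples, by a margin smaller than the range within either genotype. The log2 fold change was 0.41 (SE 0.17, unadjusted p = 0.039, adjusted p = 0.619).

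Egr1 was the lowest of the 10 genes and varied most within CD44+/+ AMs, with a coefficient of variation of 46.4%. It was listed at 0.471, 1.31 and 1.26 FPKM in CD44+/+ AMs and at 0.707, 0.729 and 0.999 FPKM in CD44-/- AMs. CD44+/+ replicate 1 was the lowest sample and the other CD44+/+ samples the highest, with the CD44-/- samples between them. The log2 fold change was -0.19 with a wide interval, from -1.0 to 0.62, and its sign turned without CD44+/+ replicate 2 (0.03) or replicate 3 (0.01).

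Atf3, the stress-induced repressor, was the gene with lower values in CD44-/- AMs and no overlap between genotypes. It was listed at 15.5, 22.4 and 19.1 FPKM in CD44+/+ AMs and at 14.2, 13.7 and 13.9 FPKM in CD44-/- AMs. The CD44-/- samples were nearly equal to each other, with a coefficient of variation of 1.81% against 18.2% in CD44+/+ AMs, and all were below the lowest CD44+/+ sample. The log2 fold change was -0.43 (SE 0.12, 95% interval from -0.70 to -0.16), with an unadjusted p of 0.0061 and an adjusted p of 0.369. Leaving out CD44+/+ replicate 1, the control sample nearest to the CD44-/- samples, gave a log2 fold change of -0.57 and an adjusted p of 0.0485, the only setting tried that called 1 of the 10 genes. Leaving out CD44+/+ replicate 2, the highest sample, gave -0.30 and an adjusted p of 0.793.

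**Figure D2:**
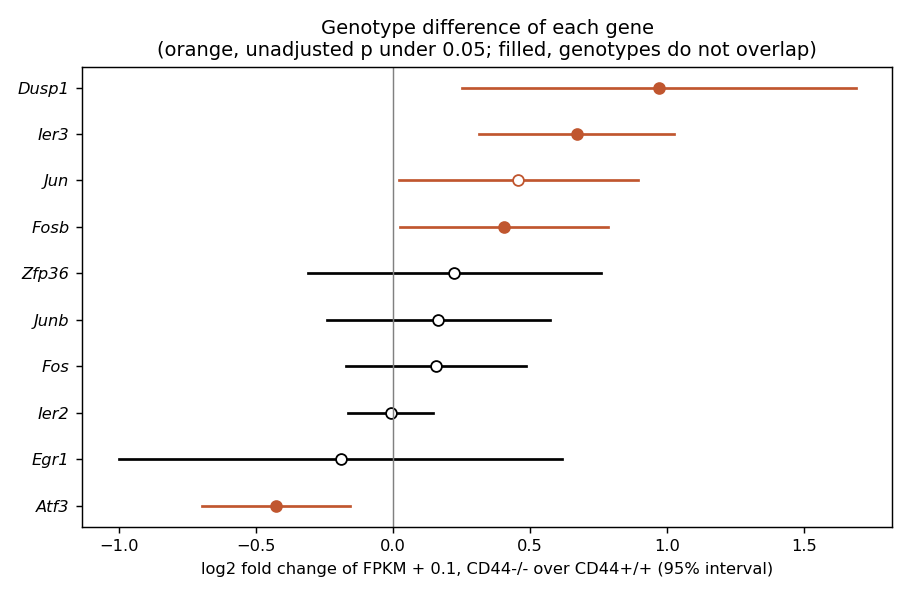
Log2 fold change of FPKM + 0.1, CD44-/- over CD44+/+ (x axis), for each of the 10 genes with its 95% interval from limma. Orange marks an unadjusted p under 0.05 and filled points mark genes in which the genotypes did not overlap. Dusp1 (0.97), Ier3 (0.67), Jun (0.46) and Fosb (0.41) lie to the right and Atf3 (-0.43) to the left.

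The 10 genes did not move as a block between genotypes but shared their variation between samples in part. CD44-/- replicate 3 held the highest value of 7 of the 10 genes (Fos, Fosb, Jun, Junb, Ier3, Dusp1 and Zfp36), while 12.2% of all tested genes had their highest value in that sample. Averaged over the 10 genes, the log2 value relative to the mean of each gene was -0.25, -0.13 and 0.02 in CD44+/+ AMs but -0.11, 0.05 and 0.42 in CD44-/- AMs. The genotypes overlapped in this mean, with CD44-/- replicate 1 below CD44+/+ replicate 3. Between samples of the same replicate number, the mean was higher in the CD44-/- sample each time. In CD44-/- replicate 1, 3 genes were above the highest CD44+/+ sample and 4 were below the lowest, whereas the counts were 6 and 1 in replicate 2 and 7 and 1 in replicate 3. Over all tested genes the shares above and below were 28.2% and 16.5% in replicate 1, 25.8% and 20.8% in replicate 2, and 22.2% and 25.2% in replicate 3, so the 3 of 10 above in replicate 1 were near the background. Atf3 was the gene below the CD44+/+ range in all 3 CD44-/- samples.

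Without CD44-/- replicate 3 the median log2 fold change of the 10 genes was 0.0078, with 6 genes higher in CD44-/- AMs, and 2 genes, Atf3 (-0.43) and Ier3 (0.55), stayed at an unadjusted p under 0.05, against 5.25% of all genes in this fit. Dusp1 then had a log2 fold change of 0.68 (unadjusted p = 0.052), Fosb 0.28, Jun 0.23, Fos 0.01 and Junb 0.01. The genotypes did not overlap in the same 4 genes, where 3 against 2 samples gave no overlap in 19.7% of all genes. CD44-/- replicate 3 also had the highest summed level of the 6 alveolar type 2 cell markers, at 90.0 FPKM, against 34.6 and 19.4 in the other CD44-/- samples and values of 22.6, 12.8 and 16.5 in CD44+/+ AMs. All 6 markers were in the table and 4 were above 1 FPKM in every sample. Sftpc alone gave 74.2 FPKM of the sum in CD44-/- replicate 3. Sftpa1, Sftpb, Lamp3 and Slc34a2 were also highest in that sample. Sftpd was not, at 2.75 FPKM there and 4.37 FPKM in CD44-/- replicate 1. The part of alveolar type 2 cells in the early gene values was not tested.

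**Figure D3:**
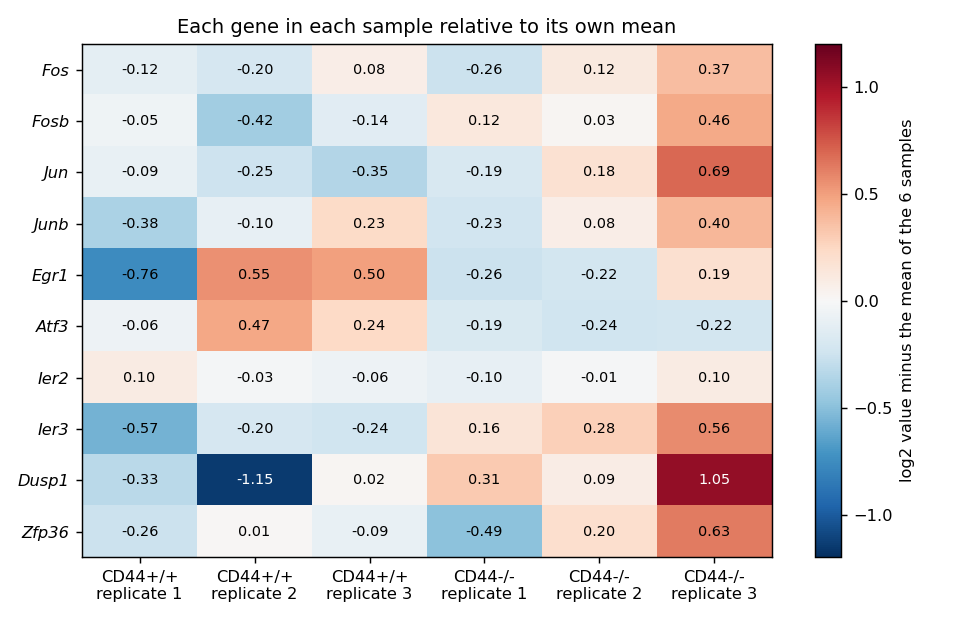
Log2(FPKM + 0.1) of each gene (rows) in each sample (columns) minus the mean of that gene over the 6 samples, as a colour and a printed value. The column of CD44-/- replicate 3 is mostly red, up to 1.05 for Dusp1, and the row of Atf3 is blue in all 3 CD44-/- samples.

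The spread within genotypes was wide for these genes. The residual SD of the log2 values was above that of 80% of all tested genes in 9 of the 10 genes, and in 6 of 10 without CD44-/- replicate 3. Dusp1 (0.56) and Egr1 (0.55) had the widest spread, beside a median of 0.11 over all genes. Ier2 was the exception at 0.09, above 42.3% of genes.

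Samples with the same replicate number deviated together in their values over all genes, and the ratio between same-numbered samples of the 2 genotypes was therefore examined. Junb gave nearly the same log2 ratio in the 3 pairs, 0.15, 0.17 and 0.17, although its level differed widely between the numbers. Dusp1 gave 0.64, 1.23 and 1.03, Ier3 0.73, 0.48 and 0.80, and Fosb 0.18, 0.45 and 0.59, so these 4 genes were higher in the CD44-/- sample of each pair. Atf3 was lower in each, at -0.13, -0.71 and -0.46. The other 5 genes changed sign between pairs, and in Fos, Jun, Zfp36 and Ier2 it was pair 1 in which the CD44-/- sample was the lower. A shared sign in all 3 pairs was found in 5 of 10 genes, and in 29.8% of all genes tested.

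With replicate number as a block (replicate block), 0 of the 10 genes were called and 5 had an unadjusted p under 0.05, with Junb in the place of Jun. Over all genes this fit called 9 and put 9.71% at an unadjusted p under 0.05. The SE of Dusp1 was 0.11 instead of 0.31 and its adjusted p was 0.0832 (limma). For Junb the SE was 0.04, with an unadjusted p of 0.0072 and an adjusted p of 0.289. Jun had an unadjusted p of 0.054 in this paired fit.

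**Figure D4:**
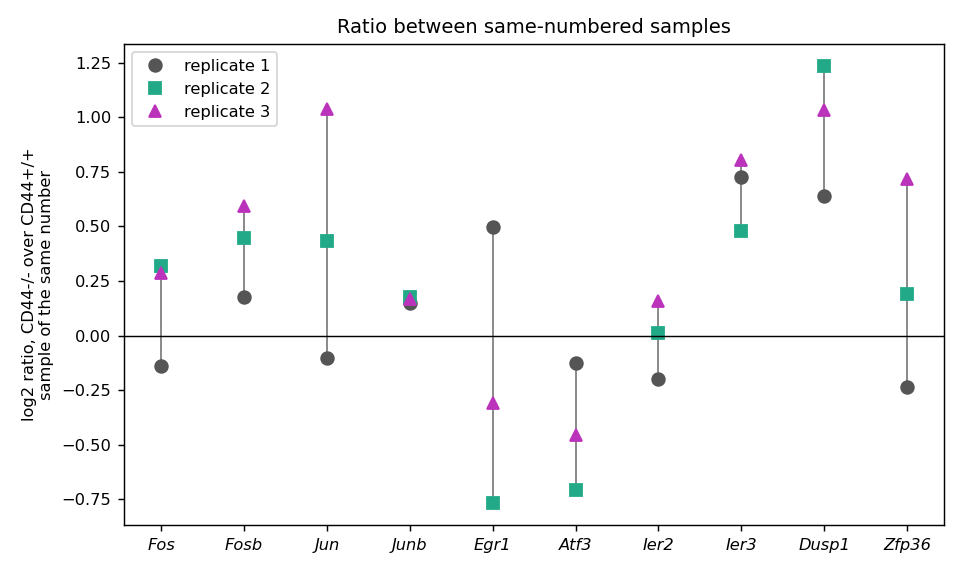
Log2 ratio of CD44-/- over CD44+/+ between samples of the same replicate number (y axis) for each of the 10 genes, with 1 symbol per number and a line joining the 3 ratios. Junb's 3 points coincide near 0.17, those of Dusp1, Ier3 and Fosb are all above 0, and those of Atf3 are all below 0.

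Levels of the 10 genes, which FPKM makes comparable per length, spanned from below 1 to above 60 FPKM. Averaged over the 6 samples, Fos was the highest at 64.5 FPKM, followed by Junb at 62.4, Ier2 at 56.9, Zfp36 at 51.7 and Dusp1 at 32.5. Atf3 at 16.5 and Jun at 14.6 came next, and Ier3 at 2.51, Fosb at 1.93 and Egr1 at 0.913 were the lowest. In this order the ranges over the 6 samples were apart only between Jun and Ier3 and between Fosb and Egr1. Within CD44+/+ AMs the ranges were also apart between Ier2 and Zfp36, Zfp36 and Dusp1, and Atf3 and Jun, and within CD44-/- AMs between Dusp1 and Atf3 and between Ier3 and Fosb. The remaining neighbours overlapped in both genotypes. Atf3 was above Jun in 4 of 6 samples, and the order was the reverse in CD44-/- replicates 2 and 3.

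The 10 genes also shared features of structure. They are short, with a median span of 3034.5 bases in mm10 against 24296.5 bases over all tested genes, and have few exons, a median of 2 (from 1 to 4) against 9 over 10050 tested genes with a 3′ UTR in GENCODE vM21. Jun, Junb and Ier2 are single-exon genes, 30% of the set against 1.93% of those genes. AU-rich elements, through which ZFP36 proteins direct decay, were counted in the 3′ UTR. At least 1 copy of TATTTAT was present in 7 of 10 genes (70%), against 28.2% of the 10050, and the median density of ATTTA was 3.56 against 1.29 per kilobase. Ier3 held 5 ATTTA and 4 TATTTAT in 613 bases, the highest density of the 10, Dusp1 held 4 and 3, and Zfp36, whose own message is among the targets of its protein, held 3 and 3. Ier2 held 0 of either, and Junb and Egr1 held 0 TATTTAT. None of the 10 genes lies on chromosome 2, which holds Cd44.

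Further lists were read from the same fit to place the 10 genes among their relatives. They held 105 tested genes, of which 51 were higher and 54 lower in CD44-/- AMs, and 0 were called. At an unadjusted p under 0.05 were 12 (4 higher, 8 lower), against 7.69% of all genes (4.75% higher, 2.94% lower).

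Among 9 other tested AP-1 family genes, 4 were higher and 5 lower (median log2 fold change -0.07), and 3 were at an unadjusted p under 0.05, all lower. These were the small Maf gene Maff, at 23.4, 28.5 and 27.0 FPKM in CD44+/+ and 20.5, 22.7 and 18.4 FPKM in CD44-/- AMs (log2 fold change -0.36, adjusted p = 0.369), its relative Mafg (-0.25, and -0.12 without CD44-/- replicate 3) and Batf3 (-0.26). Their direction was opposite to that of Fosb and Jun. Of 16 other early response factor genes, 8 were higher and 8 lower with 0 at an unadjusted p under 0.05, the smallest p being those of Cebpd (0.33, from 0.18 to 0.48 with a sample left out), Nfil3 (0.32, from 0.19 to 0.53) and Klf2 (-0.23, from -0.31 to -0.08). None of the 16 lacked overlap between genotypes, and 1 had its highest value in CD44-/- replicate 3, where 7 of the 10 genes had theirs.

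The 15 other early response genes that encode no transcription factor had a median of -0.03 (5 higher, 10 lower). Ier5, a relative of Ier2, was the one that was higher without overlap, at 59.5, 51.2 and 53.4 FPKM in CD44+/+ and 60.9, 62.0 and 62.1 FPKM in CD44-/- AMs (log2 fold change 0.18, adjusted p = 0.524). The kinase gene Plk3 had a log2 fold change of -0.37 (unadjusted p = 0.037), and of -0.19 without CD44-/- replicate 3, and the survival gene Mcl1 had a log2 fold change of 0.28 at an unadjusted p of 0.070 (from 0.17 to 0.44 with a sample left out). The relatives of Dusp1 and Zfp36, 7 other MAP kinase phosphatase and ZFP36 family genes, did not show the direction of Dusp1. In that list 2 were higher and 5 lower with 0 at an unadjusted p under 0.05, and the values nearest to it were those of the ERK phosphatase genes Dusp6 (-0.31) and Dusp7 (-0.10) and of Dusp10 (-0.18). With a sample left out these ranged from -0.48 to -0.14 for Dusp6, from -0.19 to -0.03 for Dusp7 and from -0.38 to -0.04 for Dusp10.

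Genes upstream of the early response, 30 MAP kinase, SRF and CREB family genes, were centred near 0 (median 0.02, 21 higher and 9 lower). With a sample left out, 9 to 16 were lower, the most without CD44-/- replicate 1 (median -0.003). Without overlap, 2 were higher and 1 was lower, against 6.75% and 4.88% of all genes. Crem, a CREB family gene, had the smallest p, at 3.19, 2.69 and 2.85 FPKM in CD44+/+ and 5.46, 3.94 and 3.76 FPKM in CD44-/- AMs (log2 fold change 0.56, unadjusted p = 0.0054, adjusted p = 0.367), without overlap. Mkl1 (0.13) and Map2k1 (-0.09) had the next smallest p.

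Of 16 listed inflammatory messages with AU-rich elements, the kind that Zfp36 destabilises and Atf3 represses, 10 were tested. All 10 were lower in CD44-/- AMs, Tnfaip3 hardly so (-0.01), where 4773 of 10800 genes were lower. Their median log2 fold change was -0.30 and 0 were called. The lower direction rested on CD44+/+ replicates 2 and 3. In pair 1, formed by the samples numbered 1, 9 of the 10 were higher in the CD44-/- sample, whereas 0 were higher in pairs 2 and 3. CD44+/+ replicate 1 was the lowest of all 6 samples in 5 of them (Cxcl2, Cxcl3, Ccl3, Nfkbia and Tnfaip3). The median was -0.79 without CD44+/+ replicate 1 and -0.10 without CD44+/+ replicate 2, and 7 of 10 were lower without CD44+/+ replicate 3. Tnf, at 4.16, 12.0 and 8.20 FPKM in CD44+/+ and 3.48, 4.93 and 4.43 FPKM in CD44-/- AMs, was the one at an unadjusted p under 0.05 (log2 fold change -0.80, adjusted p = 0.616), with a log2 fold change of -1.21 without CD44+/+ replicate 1 and -0.46 without CD44+/+ replicate 2. The genotypes overlapped in each of the 10, and in Tnf CD44+/+ replicate 1 lay among the CD44-/- samples. Il1a (-0.27, from -0.47 to -0.13 with a sample left out) and Ccl4 (-0.92, from -1.50 to -0.59) had the next smallest p. Cxcl3 had a log2 fold change of -0.69 (adjusted p = 0.925) and Nfkbia of -0.17 (adjusted p = 0.935) over all samples. Both were called by limma only without CD44+/+ replicate 1, their lowest sample, at -1.60 (adjusted p = 0.0357) and -0.40 (adjusted p = 0.0485). Neutrophils also express such messages. The summed level of neutrophil markers was 91.3, 189 and 125 FPKM in the CD44+/+ and 97.8, 114 and 100.1 FPKM in the CD44-/- samples, with 9 of 10 markers in the table and Camp and Ngp at 0. Of the other markers, Ltf (51.1 and 24.0 FPKM), S100a9, S100a8 and Retnlg had the lower mean in CD44-/- AMs and Csf3r, Mmp8 and Cxcr2 the higher. The part of these cells in the inflammatory messages was not tested.

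Around Atf3, 4 of 5 tested integrated stress genes had lower values in CD44-/- AMs (median -0.24), with 0 called, and for 1 of the 4, Ddit3, both genotypes were at 12.3 FPKM. With a sample left out, 3 or 4 of the 5 were lower. Atf4, the factor upstream of Atf3 in this pathway, was at 81.3, 91.9 and 82.1 FPKM in CD44+/+ and 70.9, 71.2 and 73.0 FPKM in CD44-/- AMs (log2 fold change -0.24, unadjusted p = 0.0026, adjusted p = 0.289). Asns, the asparagine synthetase gene, was at 3.29, 4.77 and 3.31 FPKM in CD44+/+ and 1.62, 2.44 and 2.45 FPKM in CD44-/- AMs (log2 fold change -0.78, adjusted p = 0.350). The genotypes did not overlap in either gene, while Trib3 (-0.40, unadjusted p = 0.051) overlapped.

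Dusp1 is also a glucocorticoid-induced gene, and 5 of 6 tested genes of that list were higher in CD44-/- AMs (median 0.27), with 0 called. Fkbp5 (0.24) and Klf9 (0.30) did not overlap between genotypes, with adjusted p of 0.484 and 0.524. Tsc22d3, which encodes the glucocorticoid-induced leucine zipper protein, had values of 189, 67.9 and 141 FPKM in CD44+/+ and 235, 127 and 284 FPKM in CD44-/- AMs (log2 fold change 0.74, adjusted p = 0.746), with its lowest value of each genotype in replicate 2 and its highest in CD44-/- replicate 3, as in Dusp1. Its log2 fold change was 0.32 without CD44+/+ replicate 2 and 1.08 without CD44-/- replicate 2. Heat shock genes, which cells induce when proteins misfold, had a median of 0.01 over 9 tested genes, 6 higher and 3 lower. With a sample left out, 3 to 6 were lower and the median ranged from -0.05 to 0.07. Hsp90ab1 (-0.15, unadjusted p = 0.024) and Hspd1 (-0.10, from -0.13 to -0.05 with a sample left out) were lower without overlap. Dnajb1 (0.20, from 0.11 to 0.29) followed.

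**Figure D5:**
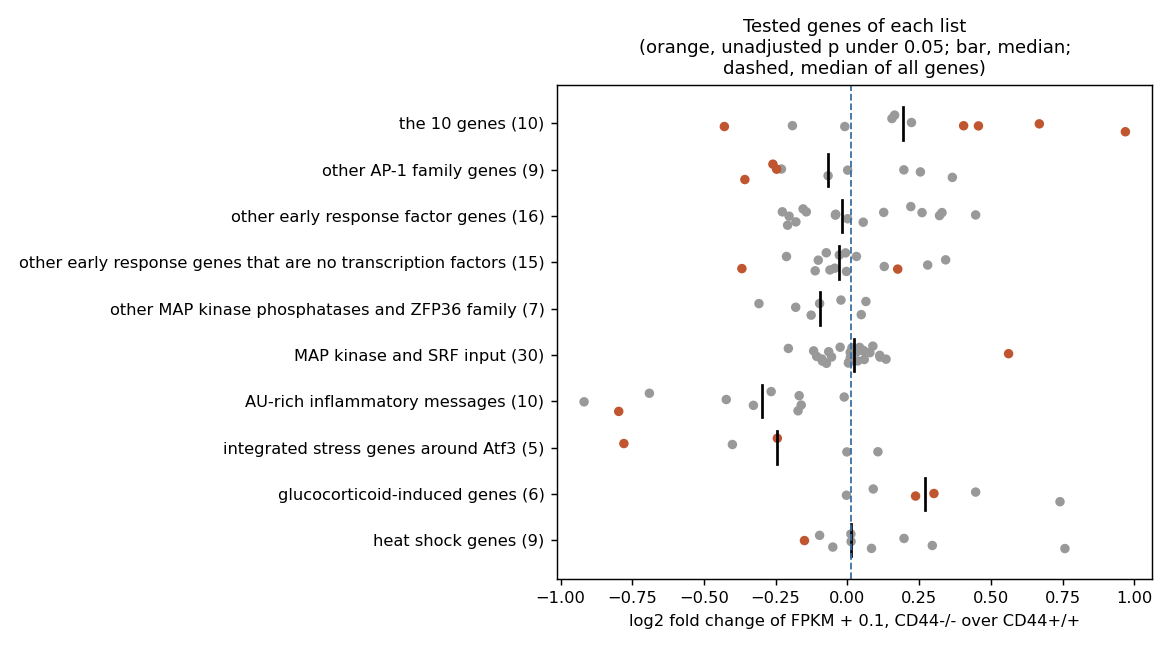
Log2 fold change of FPKM + 0.1, CD44-/- over CD44+/+ (x axis), of each tested gene of each list (rows, number tested in parentheses), with orange for an unadjusted p under 0.05, a black bar at the median of the list and a dashed line at the median of all genes. The median is 0.19 for the 10 genes, -0.30 for the AU-rich inflammatory messages, -0.24 for the integrated stress genes and 0.27 for the glucocorticoid-induced genes.

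The genes whose values followed the mean of the 10 genes most closely over the 6 samples were Lin54 (Pearson's r = 0.984, Spearman's rho = 0.943), Lbr (0.982 and 0.943), Zfp111 (0.981 and 0.943), Lgals3 (0.977 and 0.943) and Cox5b (0.962 and 1.0). Of 10790 other genes, 47 had an r above 0.9 over these 6 samples. Without the 2 samples farthest from the median of that mean, CD44-/- replicate 3 and CD44+/+ replicate 1, r was 0.977, 0.880, 0.811, 0.847 and 0.998 in the same order.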

How the data were processed

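The authors mapped paired-end RNAseq reads from a stranded library kit to mm10 by STAR, and the values they deposited are FPKM of each sample as estimated by Cufflinks. The annotation they counted on is not given in the sources used here. The deposited Cuffdiff columns (FPKM per genotype, fold changes, p-values and q-values) hold their own comparison and were not used. Positions were looked up through the gene identifier of the position columns, because the name columns stand in different orders (0 rows match), and 1 row without a value in a sample, Rapgef6, was left out.

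Genotype and replicate number came from the sample labels. The 10800 genes whose mean over the 6 samples reached 0.5 FPKM were compared on log2(FPKM + 0.1) with limma 3.58.1 in R 4.3.3 (lmFit and eBayes with trend, two-sided, Benjamini-Hochberg over all genes, threshold 0.05). Fold changes on this scale understate those of low genes. Limma was used in place of Cuffdiff, which needs reads. The fit was tested on simulated data. Same-numbered samples of the 2 genotypes correlated in their deviations from the genotype means (r = 0.212, 0.132 and 0.211 over genes), which was the basis for pairing. The sources do not say that they were collected together, and give the pool sizes (4, 2 or 2 mice) without tying them to replicate numbers. Named genes were all 10 members and, of each further list, those called, else the 3 with the smallest p and any at an unadjusted p of 0.05 or less, plus the 5 genes most correlated with the mean of the 10. The members and lists were chosen with earlier results of these data known. Genes named outside this rule (Cxcl2, Cxcl3, Ccl3, Nfkbia, Tnfaip3 and Ddit3) were chosen after their values were seen. Absolute depth is unknown, so no counting interval is given, and relative depth came from the steps between low values. The 15 alternatives covered pseudocount, low-value filter, scaling, variance model, replicate block and each sample left out. RefSeq gave promoters (GRCm38.p6, 8 of 10 genes matched) and GENCODE vM21 gave exons and 3′ UTRs, from 1 principal protein-coding transcript per gene.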

Additional observations from a re-analysis of the deposited data

How the results depend on the processing

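Atf3, Ier3, Dusp1, Fosb, Jun, Fos and Junb kept the sign of their log2 fold change under all 15 alternatives. The sign turned for Egr1 (0.0345 without CD44+/+ replicate 2 and 0.0085 without CD44+/+ replicate 3), Ier2 (0.0394 without CD44+/+ replicate 1 and 0.0379 without CD44-/- replicate 1) and Zfp36 (-0.0339 without CD44-/- replicate 3), none of them called. With a sample left out they ranged from -0.618 to 0.0345 for Egr1, from -0.0607 to 0.0394 for Ier2 and from -0.0339 to 0.525 for Zfp36. Egr1 was not tested with a minimum mean of 1 FPKM. The number of the 10 genes called was 0, and 0 to 1 with a sample left out (Atf3, without CD44+/+ replicate 1). The number at an unadjusted p under 0.05 was 5, and 3 with no filter, with quantile normalization (Jun and Fosb lost in both) and with robust eBayes (Jun and Dusp1 lost), and 2 to 6 with a sample left out, the 2 without CD44-/- replicate 3 (5.25% of all genes) and the 6 without CD44+/+ replicate 1 (12.5%) or CD44-/- replicate 1 (8.52%). The number without overlap was 4, and 4 to 7 with a sample left out (7 without CD44-/- replicate 1), when the share over all genes was 17.4% to 30.3% (23.1% without CD44-/- replicate 1) and not 11.6%. The paired fit (replicate block) changed no call among the 10 genes. Genes of the further lists called numbered 0, and 0 to 2 with a sample left out. Those at an unadjusted p under 0.05 numbered 12, against 7.69% of all genes, and 29 with the replicate block, against 9.71%. With a sample left out they numbered 5 (without CD44+/+ replicate 2, against 5.08%) to 26 (without CD44+/+ replicate 1, against 12.5%). Over all genes, 12 were called, 7 with no filter (where 16227 genes were tested) and 6 to 36 with a sample left out, the most without CD44+/+ replicate 1. Scaling moved the median of all genes from 0.013 to -0.0014 (median ratio) and -0.0043 (quantile). The cause of these changes was not tested. With 3 pools per genotype and unknown absolute depth, a p that misses the threshold does not show equal levels.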
